A study of Mus musculus with 2 samples.

Results

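Cytosolic ribosomal proteins build the small and the large subunit of the ribosome that translates nuclear-encoded messages. Their genes lie scattered over the genome, yet their messages are among the most abundant in most cells and are largely made and translated together. Most of these messages begin with a terminal oligopyrimidine (TOP) tract, a run of C and T (U in the RNA) right at the start of transcription, through which the kinase complex mTORC1 and the RNA-binding protein LARP1 adjust their translation. The summed level of the family is therefore often read beside the growth state of a cell.

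The family was taken by symbol: Rps or Rpl, a number and at most 1 letter out of a, l and x, together with Rplp0, Rplp1, Rplp2 and Rpsa. This rule found 80 of the 31053 genes listed in the files, 31 of the small and 49 of the large subunit. The 80 genes lie on 19 chromosomes, and 4 of them are X-linked (Rps4x, Rpl10, Rpl36a and Rpl39). All 80 had a UMI (unique molecular identifier, the count of a captured RNA molecule) in a kept barcode, and 77 had at least 100 UMIs over both libraries. The rule leaves out Rps3a1, with 44815 UMIs in the p47phox-KI library and 43141 in the WT library, as well as genes with other names such as Fau and Rack1. Rps3a1 was named after its values were seen.

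The series sets cells of p47phox-KI mouse lungs against cells of wild-type (WT) lungs, and the labels give strain C57BL/6 and acute lung injury for both. The p47phox protein, encoded by Ncf1, is a cytosolic subunit of the phagocyte NADPH oxidase. Each genotype is 1 droplet library, made with the Chromium V3 kit, which counts molecules by a tag at the 3′ end of the message. The nature of the KI allele, the injury agent, the number of pooled animals and the gate of the CD45.2 sort are not given in the labels. Each genotype is a single library, so the genotypes were compared without replicates and without a test. All intervals below are exact 95% intervals that cover counting error only.

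The p47phox-KI library held 43445797 UMIs in 9120 barcodes, and the WT library held 43376713 UMIs in 10473 barcodes. Barcodes with at least 200 genes and at most 10% mitochondrial UMIs were kept, 7161 in p47phox-KI and 8417 in WT, with median depths of 3927 UMIs in p47phox-KI and 3423 UMIs in WT. There were 30 barcode sequences found in both libraries, and each was treated as 2 separate barcodes. Ncf1 had 188 UMIs in p47phox-KI and 206 in WT, or 4.98 CPM (UMIs of the gene per 1000000 UMIs of the same barcodes) in p47phox-KI (4.29 to 5.74) and 5.37 CPM in WT (4.66 to 6.15), intervals that overlap. Ptprc, which encodes the antigen of the CD45.2 stain, had 337 UMIs in p47phox-KI and 397 in WT. Most barcodes were of non-leukocyte classes. Barcodes fell into 26 clusters, formed without the ribosomal protein genes, of which 23 could be named from markers, giving 10 classes. Class names end in -like, since only markers support them.

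The annotated starts differ in how much C and T they hold. The 30 bases centred on the annotated start are printed for the genes the results below turn on: some with a high ratio between the libraries (Rps28, Rps26, Rpl36a and Rpl35), some with a low one (Rpl14 and Rpl4), Rps6, and the Rps27 pair, whose balance differed between cell classes. Rps27l had 2 annotated starts, and the one printed was chosen by the length of its run of C and T. Sequences are from RefSeq on GRCm38.p6, 5′ to 3′ on the strand of the gene, and capitals mark the longest run of C and T.
Rps28, chr17:33824548-33824577, minus strand: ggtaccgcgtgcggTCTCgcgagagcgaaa
Rps26, chr10:128626492-128626521, minus strand: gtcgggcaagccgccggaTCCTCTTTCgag
Rpl36a, chrX:134585639-134585668, plus strand: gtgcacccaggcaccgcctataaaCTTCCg
Rpl35, chr2:39005117-39005146, minus strand: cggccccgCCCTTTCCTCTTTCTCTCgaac
Rpl14, chr9:120571502-120571531, plus strand: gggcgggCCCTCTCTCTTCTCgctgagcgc
Rpl4, chr9:64173372-64173401, plus strand: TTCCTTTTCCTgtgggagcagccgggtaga
Rps6, chr4:86857353-86857382, minus strand: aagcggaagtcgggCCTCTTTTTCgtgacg
Rps27, chr3:90213634-90213663, minus strand: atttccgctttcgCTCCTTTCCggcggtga
Rps27l, chr9:66946071-66946100, plus strand: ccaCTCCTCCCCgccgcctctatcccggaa

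The table of promoters held 60 of the 80 genes, with 72 starts. A run of at least 7 bases that are C or T lay within these 30 bases at 34 of the 72 starts (47.2%), against 18.6% of all 32851 starts in the table. For mitochondrial ribosomal proteins, which are encoded in the nucleus but serve the mitochondrial ribosome, the share was 14.7% of 75 starts. The letters CTTTC, which overlap such runs, stood on the gene's strand at 23.6% of the ribosomal protein starts and 4.05% of all starts. On the reverse strand the shares were 2.78% and 3.60%. The letters CTTCC stood at 18.1% of the ribosomal protein starts, 14.7% of the mitochondrial ribosomal protein starts and 6.63% of all starts. On the reverse strand they stood at 11.1% of the ribosomal protein starts and 7.31% of all starts. The longest run was 18 bases in Rpl35, 14 in Rpl14 and 11 in Rpl4, against 4 in Rps28 and 5 in Rpl36a. In Rpl4 and Rps27l the marked run ends upstream of the annotated start, and in Rps26 and Rpl36a it begins downstream of that start.

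Lymphocytes stood far above all other classes in the share of their UMIs that came from the family. In T or NK-like cells the 80 genes made up 31.1% of all UMIs in p47phox-KI (interval 30.9 to 31.3, 45 barcodes) and 31.8% in WT (31.6 to 32.0, 61 barcodes). In B-like cells the share was 27.0% in p47phox-KI (32 barcodes) and 23.0% in WT (59 barcodes). Per barcode the libraries lay closer in this class. The median share there was 27.9% in p47phox-KI and 28.5% in WT, and the mean 27.45% in p47phox-KI and 26.59% in WT. Macrophage or monocyte-like cells followed with 14.6% in p47phox-KI (46 barcodes) and 17.4% in WT (53 barcodes). Neutrophil-like cells, also leukocytes, had a far lower share than these, 5.68% in 12 p47phox-KI barcodes and 4.48% in 105 WT barcodes.

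Among the structural cells of the lung, type 2 alveolar-like cells, the surfactant-making epithelium, held the highest share. It was 9.46% in p47phox-KI (616 barcodes) and 8.72% in WT (508 barcodes). Airway epithelial-like cells had 7.84% in p47phox-KI (43 barcodes) and 6.38% in WT (65 barcodes). Fibroblast-like cells had 7.21% in p47phox-KI and 6.76% in WT, and smooth muscle or pericyte-like cells 5.83% in p47phox-KI and 5.90% in WT. Type 1 alveolar-like cells had 4.70% in p47phox-KI and 4.22% in WT, and endothelial-like cells 4.55% in p47phox-KI and 4.18% in WT. Both libraries thus gave T or NK, B, macrophage or monocyte and type 2 alveolar as the highest 4 classes in the same order. Over all kept barcodes the share was 6.27% in p47phox-KI and 5.75% in WT.

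**Figure D1:**
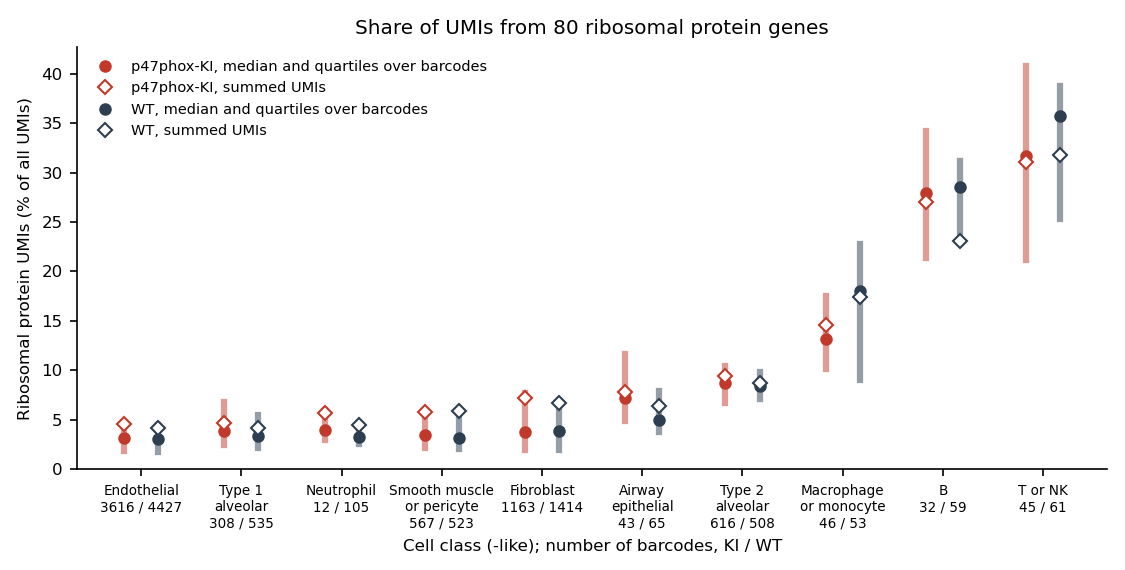
Share of UMIs from the 80 ribosomal protein genes (y axis, % of all UMIs) in each cell class (x axis), p47phox-KI in red left of WT in dark blue; filled points are medians over barcodes, bars run between the quartiles and open diamonds are shares of the summed UMIs. T or NK-like and B-like cells sit between 23.0% and 31.8% by summed UMIs, and endothelial-like cells at 4.55% in p47phox-KI and 4.18% in WT.

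Within a class the share still spanned a wide range, and it did so by cluster. Among endothelial-like clusters, the one led by Slc6a2, Fabp4 and Vwf held 7.71% in p47phox-KI and 7.75% in WT. The one led by Ednrb, Edil3 and Fibin held 1.72% in p47phox-KI and 1.51% in WT, the lowest shares of all 26 clusters. That cluster was shallow, with a median of 1523 UMIs, and the nuclear RNA Malat1 took a median of 7.47% of its UMIs in p47phox-KI and 6.43% in WT. Among fibroblast-like clusters, the one led by Dcn, Lum and Serpinf1 held 11.2% in p47phox-KI and 11.1% in WT, while the one led by Inmt, Mfap4 and Nebl held 3.52% in p47phox-KI and 4.41% in WT. Contractile smooth muscle genes (Acta2, Tagln, Actc1) led a cluster with 9.68% in p47phox-KI and 9.94% in WT, against 3.44% in p47phox-KI and 3.26% in WT in the cluster led by Spp1, Cox4i2 and Postn. Clusters of the same class therefore differed in the share by more than the 2 libraries did within any of the clusters just named.

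The share also went with depth. In endothelial-like cells the median share per barcode was 1.53% in p47phox-KI and 1.55% in WT in the shallowest of 5 depth bins (514 to 2125 UMIs), and 4.74% in p47phox-KI and 4.42% in WT in the deepest (6067 to 42100 UMIs). The median share of Malat1 ran the other way, at 6.40% in p47phox-KI and 5.40% in WT in the shallowest bin and at 3.36% in p47phox-KI and 3.09% in WT in the deepest. Across barcodes of this class the share had a Spearman rho of 0.599 with depth and -0.585 with the Malat1 share in p47phox-KI (3616 barcodes), and 0.579 and -0.552 in WT (4427 barcodes). These are descriptions, since depth, Malat1 and the family are parts of the same total. In type 2 alveolar-like cells rho with depth was 0.372 in p47phox-KI and 0.0382 in WT, and summed shares stayed between 8.47% and 10.2% in p47phox-KI and between 8.16% and 9.17% in WT over the 5 bins.

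Between the genotypes, the share was slightly higher in p47phox-KI in 4 of the 5 classes with at least 100 barcodes in each library. The log2 ratio of p47phox-KI over WT was 0.12 in endothelial-like cells (0.12 to 0.13), 0.094 in fibroblast-like cells (0.087 to 0.10), 0.12 in type 2 alveolar-like cells (0.11 to 0.12) and 0.16 in type 1 alveolar-like cells (0.15 to 0.17). In smooth muscle or pericyte-like cells it was -0.017 (-0.030 to -0.0047). Over all kept barcodes it was 0.12. These intervals cover counting error of 2 libraries and say nothing about the spread between animals.

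In 4 of these 5 classes, all but type 2 alveolar-like cells, some setting turned the direction. In endothelial-like cells the share was lower in p47phox-KI in 4 of the 5 depth bins, with log2 ratios of -0.053, -0.12, -0.080 and -0.067, and higher only in the deepest bin, at 0.13. With equal weight to the bins, an alternative chosen after the data were seen, the ratio was -0.018. By cluster, the ratio was 0.18 in the cluster led by Ednrb, Car4 and Fibin and -0.031 in that led by Plvap, Cd93 and Gpihbp1, the 2 largest. In fibroblast-like cells equal bin weights gave -0.072, and the ratios by cluster ran down to -0.32 in the cluster led by Inmt. In smooth muscle or pericyte-like cells 4 of 5 bins were lower in p47phox-KI, and equal bin weights gave -0.17, while the mean of shares per barcode gave 0.042. Median depth was 4172 UMIs in p47phox-KI and 3632 in WT among endothelial-like barcodes, and 3175 UMIs in p47phox-KI and 2620 UMIs in WT among fibroblast-like barcodes. The part of depth in the pooled ratios was not tested.

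In both alveolar classes the share of summed UMIs was higher in p47phox-KI in all 5 depth bins. In type 2 alveolar-like cells the bin ratios ran between 0.0043 and 0.22 on the log2 scale. The median share per barcode was lower in p47phox-KI in the shallowest bin (5.08% in p47phox-KI, 7.13% in WT) and in the next (8.72% in p47phox-KI, 8.86% in WT), and the mean of shares per barcode gave a log2 ratio of 0.025. A shallow cluster led by Lyz1, Sftpc and Slc34a2, with 90 p47phox-KI and 4 WT barcodes, belonged to this class, and the ratio without it was 0.13. In type 1 alveolar-like cells the bin ratios ran between 0.075 and 0.36. Of this class, 100 of 308 p47phox-KI barcodes and 139 of 535 WT barcodes lay in a shallow cluster led by Ager, Cldn18 and Igfbp2 in which Malat1 had a median share of only 0.0914% in p47phox-KI and 0.0567% in WT. With at least 1000 UMIs and at most 5% mitochondrial UMIs required of each barcode, the type 1 ratio was -0.070 (3.48% in p47phox-KI, 3.65% in WT).

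**Figure D2:**
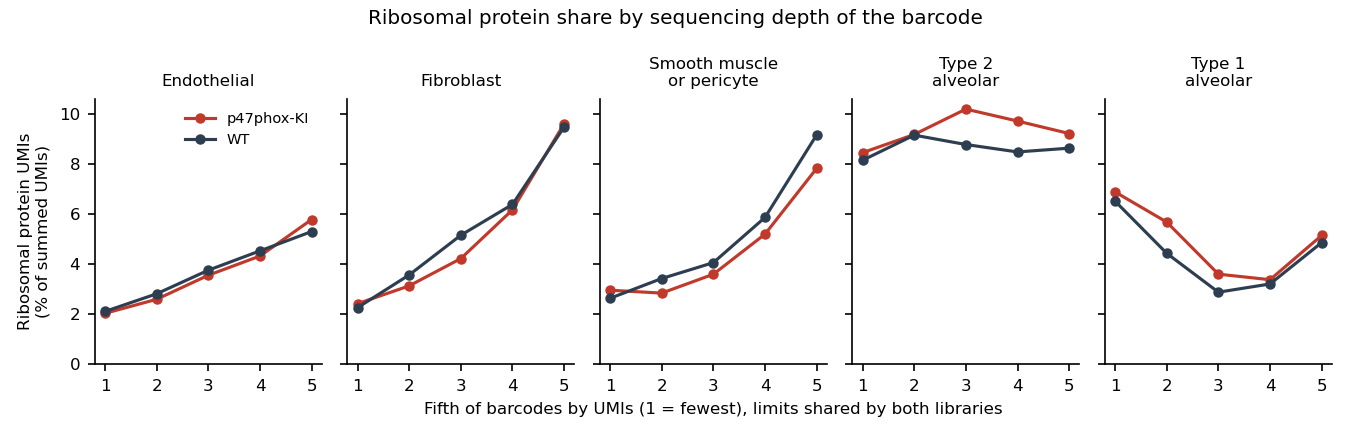
Ribosomal protein UMIs as % of summed UMIs (y axis) in 5 bins of barcodes ordered by depth, with limits shared by both libraries (x axis), in the 5 classes with at least 100 barcodes per library; p47phox-KI is red, WT dark blue. In endothelial-like cells the p47phox-KI share lies below the WT share in bins 1 to 4 and above it in bin 5 (5.79% in p47phox-KI, 5.31% in WT), while in both alveolar classes it lies above in each of the 5 bins.

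The share among nuclear UMIs was also higher in p47phox-KI among the barcodes that the mitochondrial limit removes. It was 5.87% in p47phox-KI and 5.31% in WT among barcodes with 10% to 20% mitochondrial UMIs, and 4.86% in p47phox-KI and 3.84% in WT above 20%. Among barcodes with at most 5% it was 6.44% in p47phox-KI and 5.78% in WT. In both libraries the share was lowest in the barcodes with over 20% mitochondrial RNA.

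Gene by gene, the ratios between genotypes were small, and in 4 of the 5 classes most were above 0. Of the 77 genes with at least 100 UMIs, none had a log2 ratio over 0.5 or under -0.5 in any of the 5 classes or over all kept barcodes. Among all genes with at least 100 UMIs, 8.49% were over 0.5 and 4.39% under -0.5 over all kept barcodes. The same shares were 8.44% and 3.78% in endothelial-like, 10.8% and 5.39% in fibroblast-like, 7.70% and 4.23% in smooth muscle or pericyte-like, 7.55% and 2.31% in type 2 alveolar-like and 9.09% and 6.18% in type 1 alveolar-like cells. Among genes with at least 1000 UMIs, the shares over 0.5 and under -0.5 were 3.63% and 2.41% over all kept barcodes, 3.83% and 2.11% in endothelial-like, and 4.40% and 6.09% in fibroblast-like cells. They were 1.56% and 2.92% in smooth muscle or pericyte-like, 2.02% and 1.44% in type 2 alveolar-like, and 4.73% and 8.05% in type 1 alveolar-like cells.

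The sign was positive for 76 of the 77 genes over all kept barcodes, where 59.1% of all genes were above 0. It was positive for 76 in endothelial-like cells (57.9% of all genes), 68 in fibroblast-like cells (57.0%), 34 in smooth muscle or pericyte-like cells (54.0%), 72 in type 2 alveolar-like cells (59.5%) and 69 in type 1 alveolar-like cells (57.0%). The median log2 ratio of the family was 0.12, 0.094, -0.0079, 0.13 and 0.16 in the same order of classes. The medians over all genes were 0.050, 0.056, 0.027, 0.059 and 0.052. Of all genes with at least 1000 UMIs, 56.7% were above 0 over all kept barcodes, 53.0% in endothelial-like, 47.1% in fibroblast-like, 43.7% in smooth muscle or pericyte-like, 52.7% in type 2 alveolar-like and 48.3% in type 1 alveolar-like cells. Genes of the family share barcodes and a common scale, so their signs are not independent.

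Some genes of the family kept their place within it from class to class. The 18 genes that lay above the family's median ratio in all 5 classes included Rps28, Rps26, Rpl36a, Rpl41, Rpl27, Rpl23a, Rpl35 and Rplp2, and 14 genes lay below it in all 5, among them Rpl4, Rpl14, Rpl18, Rpl8, Rpl10a and Rps6. The classes come from the same 2 libraries, so this repetition is no replicate check. No such count was made for genes outside the family, so it is not read as a trait of the family. Across the 77 genes the ratio had a Spearman rho of -0.359 with the level and -0.214 with transcript length, as a description of genes that share libraries.

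Rps28, a small-subunit protein, stood highest in endothelial-like cells. It had 2107 UMIs (126 CPM) in p47phox-KI and 1618 UMIs (91.3 CPM) in WT, a log2 ratio of 0.465 (0.37 to 0.56). In type 2 alveolar-like cells it had 424 CPM in p47phox-KI and 332 CPM in WT, a log2 ratio of 0.35 (0.28 to 0.43), and in fibroblast-like cells 256 CPM in p47phox-KI and 209 CPM in WT, a log2 ratio of 0.29 (0.17 to 0.42). Its level was thus higher in p47phox-KI in each of these classes, beyond counting error but short of 0.5.

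Rps26, a small-subunit protein near the exit of the messenger RNA channel, had 576 CPM in p47phox-KI and 443 CPM in WT in fibroblast-like cells, with a log2 ratio of 0.38 (0.29 to 0.46). In type 2 alveolar-like cells it had 650 CPM in p47phox-KI and 521 CPM in WT, a log2 ratio of 0.32 (0.26 to 0.38). The X-linked Rpl36a, a large-subunit protein at the tRNA exit site, had the highest ratio in type 1 alveolar-like cells, with 264 CPM in p47phox-KI and 187 CPM in WT and a log2 ratio of 0.50 (0.32 to 0.68). In endothelial-like cells it had 287 CPM in p47phox-KI and 229 CPM in WT, a log2 ratio of 0.33 (0.27 to 0.39). All of the last 90-base windows of Rpl36a recur in other annotated transcripts, so its reads may be split with copies. Rpl41, the smallest protein of the ribosome, had 911 CPM in p47phox-KI and 675 CPM in WT in type 1 alveolar-like cells, a log2 ratio of 0.43 (0.34 to 0.53).

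Several large-subunit proteins had low ratios. Rpl4 had 507 CPM in p47phox-KI and 556 CPM in WT in fibroblast-like cells, a log2 ratio of -0.13 (-0.21 to -0.051), and over all kept barcodes 401.1 CPM in p47phox-KI and 400.5 CPM in WT. Rpl14 had 1085 CPM in p47phox-KI and 1137 CPM in WT in type 2 alveolar-like cells, a log2 ratio of -0.068 (-0.11 to -0.024). Rpl8, which lines the peptidyl transferase centre, had 793.5 CPM in p47phox-KI and 792.9 CPM in WT in endothelial-like cells. Rpl10a, Rpl7 and Rpl21 were lowest in smooth muscle or pericyte-like cells, with log2 ratios of -0.20, -0.18 and -0.18. Small-subunit genes were among the lowest too. In type 1 alveolar-like cells Rps27l had 225 CPM in p47phox-KI and 247 CPM in WT, a log2 ratio of -0.13 (-0.31 to 0.044), and Rps19 had 1095 CPM in p47phox-KI and 1164 CPM in WT, a log2 ratio of -0.088 (-0.17 to -0.0077). In fibroblast-like cells Rps25 had 522 CPM in p47phox-KI and 547 CPM in WT, a log2 ratio of -0.068 (-0.15 to 0.014). Neither Rpl4 nor Rpl14 shares a 90-base window of its last 400 bases with another annotated transcript, while 89.7% of such windows of Rpl10a recur. Across the 77 genes the ratio had a Spearman rho of only 0.0417 with the share of recurring windows.

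**Figure D3:**
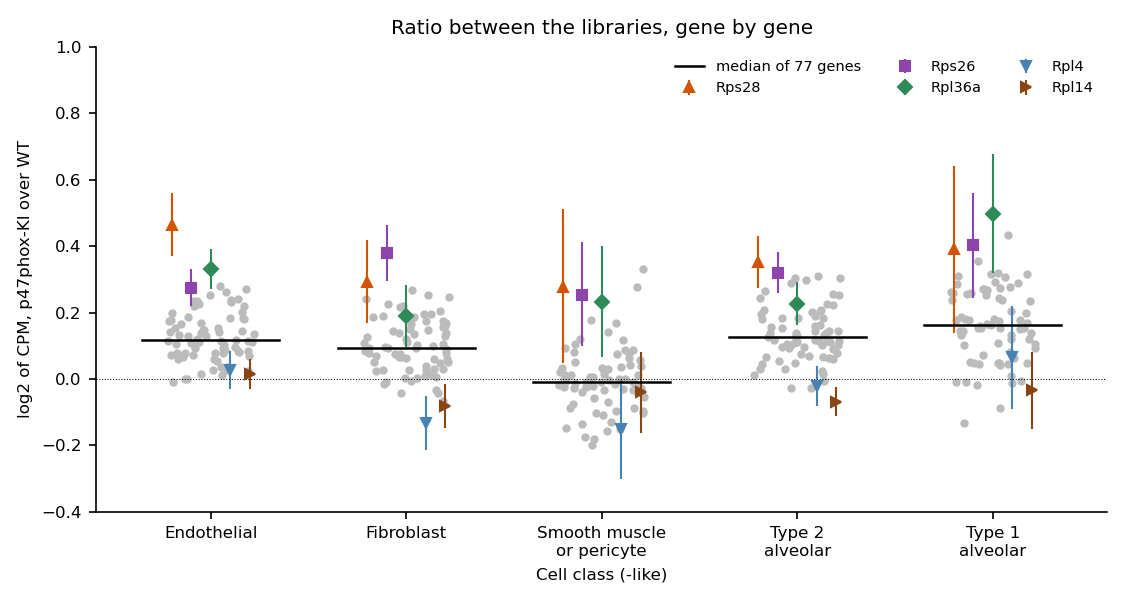
Log2 ratio of CPM, p47phox-KI over WT (y axis), for the 77 genes with at least 100 UMIs in 5 cell classes (x axis); grey points are genes, black lines the medians, and 5 named genes carry exact 95% counting intervals. Rps28, Rps26 and Rpl36a lie above the median in each class, Rpl4 and Rpl14 below it.

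Genes chosen for their roles all had ratios above 0 over all kept barcodes. So did 76 of the 77 measured genes of the family, so the sign does not set the chosen genes apart. It was not kept in every class. Among smooth muscle or pericyte-like barcodes the log2 ratios of Rplp0, Rps6 and Rps25 were -0.096, -0.086 and -0.16. Those of Rplp1, Rplp2, Rpl10 and Rpl39 were positive there. The levels and ratios that follow are over all kept barcodes. In the stalk, which recruits translation factors to the large subunit, Rplp0 had 1034 CPM in p47phox-KI and 949 CPM in WT, Rplp1 1326 CPM in p47phox-KI and 1175 CPM in WT, and Rplp2 596 CPM in p47phox-KI and 498 CPM in WT, with log2 ratios of 0.12, 0.17 and 0.26. Of the proteins that carry the 5S RNA and can bind Mdm2 when assembly fails, Rpl5 had 652 CPM in p47phox-KI and 568 CPM in WT, and Rpl11 858 CPM in p47phox-KI and 810 CPM in WT, with log2 ratios of 0.20 and 0.083. Rps6, the substrate of the S6 kinases, had 700 CPM in p47phox-KI and 656 CPM in WT, and Rps27a, made as a fusion with ubiquitin, 1082 CPM in p47phox-KI and 1015 CPM in WT. The log2 ratios of Rps6 and Rps27a were 0.094 and 0.092.

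Rps19, mutated in human Diamond-Blackfan anaemia, had 1334 CPM in p47phox-KI and 1235 CPM in WT, and Rpsa, a small-subunit protein also called the laminin receptor, 982 CPM in p47phox-KI and 912 CPM in WT. Rpl38, whose loss in mice alters the axial skeleton, had 524 CPM in p47phox-KI and 458 CPM in WT, and Rps25, which viral internal ribosome entry sites require, 507 CPM in p47phox-KI and 457 CPM in WT. Of the X-linked genes, Rps4x had 1104 CPM in p47phox-KI and 1049 CPM in WT, Rpl10 1081 CPM in p47phox-KI and 956 CPM in WT, and Rpl39 845 CPM in p47phox-KI and 722 CPM in WT. The log2 ratios of Rps4x, Rpl10 and Rpl39 were 0.073, 0.18 and 0.23, within the range of the family. Among the genes with the most UMIs were Rpl13 (1580 CPM in p47phox-KI, 1496 CPM in WT), Rps19, Rplp1 and Rps24 (1282 CPM in p47phox-KI, 1189 CPM in WT). CPM here counts 3′ tags and is not scaled by length.

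For most genes, the balance within the family in the 5 compared classes lay close to that of all kept barcodes. These classes gave most of the family's UMIs in all kept barcodes, so such closeness is partly built in. As a share of all ribosomal protein UMIs, between 60 and 72 of the 77 genes stayed within 0.25 on the log2 scale of their share over all kept barcodes, in both libraries, in the 5 compared classes. The small subunit's genes made up 42.0% of the family's UMIs in p47phox-KI and 42.1% in WT over all kept barcodes, and between 41.4% and 42.4% in these classes. In T or NK-like cells they made up 45.6% in p47phox-KI and 45.3% in WT, and in B-like cells 45.8% in p47phox-KI and 46.0% in WT.

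Among the other genes with variable shares, Rps19 stood highest in type 2 alveolar-like cells. It made up 2.98% of the family's UMIs in p47phox-KI and 3.09% in WT there, against 1.64% in each library in smooth muscle or pericyte-like cells. Rpl21 also stood highest in type 2 alveolar-like cells, at 2.49% in p47phox-KI and 2.72% in WT, and lowest of the 5 compared classes in endothelial-like cells, at 1.56% in p47phox-KI and 1.63% in WT. Rpl15 and Rpl29 stood highest in endothelial-like cells, Rpl15 at 1.81% in p47phox-KI and 1.79% in WT, and Rpl29 at 0.895% in p47phox-KI and 0.900% in WT. The stalk gene Rplp1 stood highest in fibroblast-like cells, at 2.77% in both libraries. Each of these orders appeared in both libraries, as did the highest and lowest classes of Rps28 and Rps12. Not every variable gene repeated its order. Of the 5 compared classes, Rpl12 stood highest in smooth muscle or pericyte-like cells in p47phox-KI but in fibroblast-like cells in WT. Rpl31 stood highest in type 1 alveolar-like and lowest in fibroblast-like cells in p47phox-KI. In WT, Rpl31 stood highest in endothelial-like and lowest in type 2 alveolar-like cells.

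In lymphocytes the balance departed further from that of all kept barcodes. In T or NK-like and in B-like cells the same 7 genes had less than their usual share by over 0.5 on the log2 scale in both libraries, among them Rpl7a, Rpl10, Rpl24, Rpl31, Rpl41 and Rps27l. Of the 5 genes above 0.5 in T or NK-like cells (Rpl12, Rps15a, Rps24, Rpsa and Rps7) and the 4 in B-like cells (Rpl12, Rps15a, Rps24 and Rps27), 3 were shared, which is 60.0% of the T or NK list and 75.0% of the B list. Rpl12, at the base of the stalk, made up 1.79% of the family's UMIs in p47phox-KI and 1.86% in WT in T or NK-like cells, against 0.727% in p47phox-KI and 0.670% in WT in endothelial-like cells. Rps24 made up 3.20% in p47phox-KI and 3.21% in WT in T or NK-like cells, and 3.46% in p47phox-KI and 3.41% in WT in B-like cells. By contrast Rpl10, a protein joined late in the assembly of the large subunit, made up 0.991% in p47phox-KI and 0.823% in WT in T or NK-like cells, against 2.19% in p47phox-KI and 2.15% in WT in type 2 alveolar-like cells.

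Rps9 stood out in myeloid cells. In neutrophil-like cells it made up 5.93% of the family's UMIs in p47phox-KI (94 UMIs in 12 barcodes) and 6.92% in WT (739 UMIs in 105 barcodes), against 1.49% in p47phox-KI and 1.52% in WT in endothelial-like cells. In macrophage or monocyte-like cells it made up 2.22% in p47phox-KI and 2.42% in WT. Of the last 90-base windows of Rps9, 54.0% recur in other annotated transcripts.

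**Figure D4:**
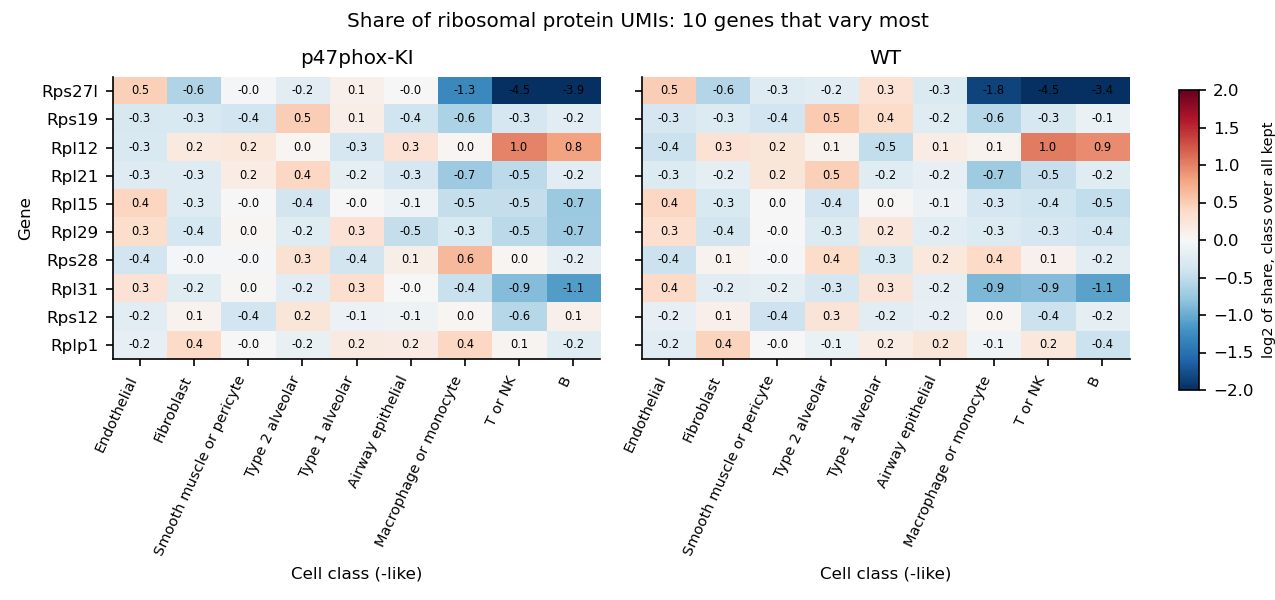
Log2 of a gene's share of ribosomal protein UMIs in a class over its share in all kept barcodes of the same library, for the 10 genes that vary most over the 5 compared classes (rows) and 9 classes (columns), p47phox-KI left and WT right; colours end at 2 in either direction. Rps27l is lowest in T or NK-like cells, at -4.50 in p47phox-KI and -4.48 in WT, and in both panels Rpl12 is highest in T or NK-like cells and Rps19 in type 2 alveolar-like cells.

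Over the 5 compared classes, Rps27l had the most variable share of the family's UMIs among genes with at least 1000 UMIs. Rps27l, a near copy of Rps27 that p53 induces and that binds Mdm2, was read together with Rps27 as a pair. In endothelial-like cells Rps27l gave 4721 of the pair's UMIs in p47phox-KI, or 30.5% (29.7 to 31.2), and 5002 in WT, or 31.7% (31.0 to 32.4). In fibroblast-like cells its share of the pair was 17.4% in p47phox-KI and 18.0% in WT. In T or NK-like cells it was 0.945% in p47phox-KI (0.489 to 1.65, from 12 UMIs) and 1.07% in WT (0.601 to 1.76, from 15 UMIs), and in B-like cells 1.15% in p47phox-KI and 1.69% in WT. Macrophage or monocyte-like cells lay between, with 13.0% in p47phox-KI and 9.52% in WT. By level, Rps27l had 61.1 CPM in p47phox-KI and 68.2 CPM in WT in T or NK-like cells, against 282.4 CPM in p47phox-KI and 282.2 CPM in WT in endothelial-like cells. Rps27 had 6406 CPM in p47phox-KI and 6297 CPM in WT in T or NK-like cells, against 645 CPM in p47phox-KI and 608 CPM in WT in endothelial-like cells. Between genotypes the level of Rps27l in endothelial-like cells did not differ beyond counting error (log2 ratio 0.00075, -0.057 to 0.058). Of the last windows of Rps27, 98.4% recur elsewhere in the annotation, against 4.18% for Rps27l, so part of the Rps27 reads may not have been counted.

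**Figure D5:**
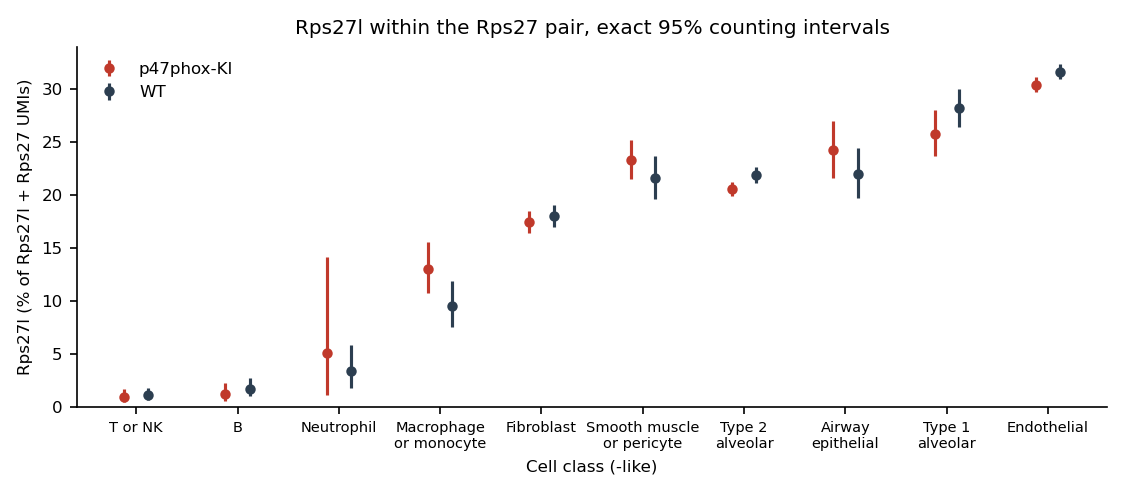
Rps27l UMIs as % of the UMIs of Rps27l and Rps27 together (y axis) by cell class (x axis), p47phox-KI in red left of WT in dark blue, with exact 95% counting intervals. T or NK-like cells lie at 0.945% in p47phox-KI and 1.07% in WT, endothelial-like cells at 30.5% in p47phox-KI and 31.7% in WT.

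Other pairs were more even. Rpl22l1, a paralogue of Rpl22, gave 29.1% of its pair in p47phox-KI and 32.0% in WT in endothelial-like cells, and 40.2% in p47phox-KI and 38.8% in WT in fibroblast-like cells. Rpl36al gave 20.1% of its pair with Rpl36a in p47phox-KI and 23.0% in WT in type 2 alveolar-like cells, and 11.4% in p47phox-KI and 12.6% in WT in fibroblast-like cells. The 3 paralogues known in mouse from muscle (Rpl3l) or testis (Rpl10l and Rpl39l) were nearly undetected. Rpl3l had 5 UMIs in p47phox-KI and 2 in WT, Rpl10l 1 in p47phox-KI and 0 in WT, and Rpl39l 13 in p47phox-KI and 0 in WT, where 0 counts in WT have an exact upper limit of 0.0961 CPM. The 13 Rpl39l UMIs came from fibroblast-like, type 2 alveolar-like, type 1 alveolar-like and endothelial-like barcodes, with at most 1 UMI each.

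Other genes of translation had ratios of both signs. Of 14 translation factors and related genes with a TOP tract, 10 were above 0 over all kept barcodes, beside 59.1% of all genes. Their median log2 ratio was 0.069, near the 0.057 of all genes, and none was past 0.5 in either direction. In endothelial-like cells Hnrnpa1 had the highest ratio of that list, at 0.32 (116 CPM in p47phox-KI, 92.9 CPM in WT), and Eif3h, a subunit of initiation factor eIF3, the lowest, at -0.13 (170 CPM in p47phox-KI, 186 CPM in WT). The elongation factor Eef1a1 had 2094 CPM in p47phox-KI and 2039 CPM in WT. The 5 ribosomal proteins outside the symbol rule had a median of 0.12 over all kept barcodes, with Fau lowest at 0.010. The 78 mitochondrial ribosomal proteins, with a median of 0.054 and 48 above 0, stood close to all genes, whose median was 0.057 with 59.1% above 0.

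Most genes of ribosome assembly and RNA polymerase I had ratios below 0 in fibroblast-like cells. Of 33 measured, 5 were above 0, 6 were under -0.5 and 0 over 0.5, with a median log2 ratio of -0.37, beside a median of 0.056 and 5.39% of genes under -0.5 over all genes. The clusters of this class differed in weight: the one led by Cxcl14 and Thbs1 held 119 of 1163 p47phox-KI and 252 of 1414 WT barcodes, and that led by Dcn and Lum 205 p47phox-KI and 136 WT barcodes. With clusters weighted alike, chosen after seeing the data, the median was -0.36, with 9 under -0.5. With the stricter cell filter (at least 1000 UMIs and at most 5% mitochondrial UMIs) 28 were measured. Their median was -0.20, with 5 under -0.5. The 6 under -0.5 at the settings of the report, named after their values were seen, were Nop58, Rrp1b, Nip7, Nolc1, Rrp9 and Eif6. Nop58, a core protein of box C/D small nucleolar particles, had 104 CPM in p47phox-KI and 179 CPM in WT, a log2 ratio of -0.78 (-0.94 to -0.61), and Eif6, which keeps immature large subunits from joining, 92.0 CPM in p47phox-KI and 137 CPM in WT, a log2 ratio of -0.58. In smooth muscle or pericyte-like cells 6 of 18 measured were under -0.5, beside 4.23% of all genes, with a median of -0.29. Under the stricter cell filter 6 were measured there, with a median of 0.072 and 1 under -0.5. In endothelial-like cells the median was 0.047, with Myc, a transcription factor that drives ribosome production, lowest at -1.19 (5.98 CPM in p47phox-KI, 13.7 CPM in WT) and the assembly factor Wdr12 highest at 0.47 (32.3 CPM in p47phox-KI, 23.4 CPM in WT). An endothelial-like cluster led by Tmem252, Grrp1 and Inhbb held 34 p47phox-KI and 265 WT barcodes, and with clusters weighted alike the ratio of Myc was -1.08.

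Of 20 genes of the mTORC1 pathway and LARP1, 14 were above 0 in endothelial-like cells, beside 57.9% of all genes. Of the 20, 4 were over 0.5, beside 8.44% of all genes, and none under -0.5, beside 3.78%. The 4 were Mlst8, Nprl2, Ddit4 and Eif4ebp1. Mlst8, a subunit of mTORC1, had 124 UMIs (7.42 CPM) in p47phox-KI and 46 UMIs (2.60 CPM) in WT, a log2 ratio of 1.5 (1.02 to 2.04). Ddit4, a stress-induced inhibitor of mTORC1, had 138 CPM in p47phox-KI and 87.4 CPM in WT, a log2 ratio of 0.66, and Eif4ebp1, an inhibitor of cap-dependent initiation, 116 CPM in p47phox-KI and 78.8 CPM in WT. Sesn1 was lowest at -0.40 (79.6 CPM in p47phox-KI, 105 CPM in WT). Larp1 itself had 74.1 CPM in p47phox-KI and 71.3 CPM in WT, which did not differ beyond counting error.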

How the data were processed

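The authors deposited a matrix of unnormalized UMI counts for each library. Software version 3.0.2 wrote them, per the file headers. According to the submitters' processing notes the genome was mm10, and the tools included Seurat 2.3.4, Cell Ranger 2.0 and R 3.5.3. Barcodes with at least 200 genes and at most 10% mitochondrial UMIs were kept. Scrublet's automatic threshold in scanpy 1.11.5 marked 0 barcodes, so doublets were kept in the main values. An alternative leaves out the highest scores at 0.8% per 1000 barcodes (645 barcodes in p47phox-KI, 862 in WT).

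Counts were log-normalized and reduced to 30 principal components of 2453 variable genes. A graph of 15 neighbours was clustered with leidenalg 0.10.2 at resolution 1. Ribosomal protein UMIs entered neither the variable genes nor the size factor. A cluster took the class with the highest marker score (at least 0.5, with at least 3 markers detected), unless its 10 leading genes held more markers of another class. Lymphatic markers were counted as endothelial after the clusters were seen, because Lyve1 led capillary clusters. Of the 26 clusters, 3 stayed unnamed: a mixture of endothelial and pericyte genes, and 2 shallow clusters with little Malat1 whose summed haemoglobin UMIs led.

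Ratios used UMIs summed over the barcodes of a class in each library, with 0.5 counts added to each sum. Ratios carry conditional binomial, levels Poisson and shares Clopper-Pearson exact intervals (scipy 1.17.1). They cover counting error only. The ratio and its interval were tested on simulated Poisson counts without spread between barcodes or animals, which checks the calculation only. Gene positions come from GENCODE on GRCm38. Genes named are the 5 with most UMIs, those under 100 UMIs, the 3 highest and lowest ratios per class, the 10 whose share varied most, fixed roles and paralogue pairs; some of these are not reported here. Rpl35, Rps9, the genes listed for lymphocytes and the pseudogenes were named after their values were seen. The members, lists and rules were chosen with earlier results of these data known.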

Additional observations from a re-analysis of the deposited data

Results flagged for a closer look

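The share of UMIs from the ribosomal protein genes had log2 ratios of p47phox-KI over WT of 0.12 in endothelial-like, 0.094 in fibroblast-like, 0.12 in type 2 alveolar-like and 0.16 in type 1 alveolar-like cells, and of -0.017 in smooth muscle or pericyte-like cells. The sign differed between smooth muscle or pericyte-like cells and the other 4 classes. The difference between classes was not tested, since each genotype is 1 library.

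Outside the family, 9 features named as pseudogenes of its genes had 5856 UMIs (155 CPM) in p47phox-KI and 4226 UMIs (110 CPM) in WT, a log2 ratio of 0.50 (0.44 to 0.55). The 7 with at least 100 UMIs were all higher in p47phox-KI, with log2 ratios between 0.42 and 0.72. Of all genes with at least 100 UMIs, 59.1% were above 0 and 8.49% over 0.5. Below that limit, Rpl9-ps1 had 10 UMIs in p47phox-KI and 5 in WT, and Rpl36-ps4 had 0 in p47phox-KI and 1 in WT. Rps12-ps3 had 1080 UMIs in p47phox-KI and 720 in WT, a log2 ratio of 0.61, while Rps12 itself had a log2 ratio of 0.23 (37348 UMIs in p47phox-KI, 32425 in WT). Rpl9-ps6 had 1349 UMIs in p47phox-KI and 1025 in WT, a log2 ratio of 0.42, while Rpl9 had 0.030.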

How the results depend on the processing

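With the settings of the report, the log2 ratio of the share (p47phox-KI over WT) was 0.12 over all kept barcodes, 0.12 in endothelial-like cells, 0.094 in fibroblast-like cells, -0.017 in smooth muscle or pericyte-like cells, 0.12 in type 2 alveolar-like cells and 0.16 in type 1 alveolar-like cells. Without marked doublets, the log2 ratio of the share was 0.15 in all kept barcodes, 0.10 in fibroblast-like cells, 0.13 in type 2 alveolar-like cells and 0.18 in type 1 alveolar-like cells. The family's median log2 ratio was 0.16 in all kept barcodes. The number of genes over the limit was 1 in type 1 alveolar-like cells. With the stricter cell filter, the log2 ratio of the share was 0.16 in all kept barcodes, 0.13 in endothelial-like cells, 0.20 in fibroblast-like cells, 0.0024 in smooth muscle or pericyte-like cells, 0.11 in type 2 alveolar-like cells and -0.070 in type 1 alveolar-like cells. The family's median log2 ratio was 0.17 in all kept barcodes, 0.20 in fibroblast-like cells and -0.071 in type 1 alveolar-like cells. The number of genes over the limit was 1 in fibroblast-like cells and 1 in type 1 alveolar-like cells. With all deposited barcodes in place of the kept ones, the log2 ratio of the share was 0.12. As the mean of shares per barcode, the log2 ratio of the share was 0.077 in all kept barcodes, 0.074 in endothelial-like cells, 0.11 in fibroblast-like cells, 0.042 in smooth muscle or pericyte-like cells, 0.025 in type 2 alveolar-like cells and 0.22 in type 1 alveolar-like cells. With a limit of 0.25 in place of 0.5, the number of genes over the limit was 7 in all kept barcodes, 7 in endothelial-like cells, 4 in fibroblast-like cells, 4 in smooth muscle or pericyte-like cells, 10 in type 2 alveolar-like cells and 23 in type 1 alveolar-like cells. With equal weight to the 5 depth bins, chosen after seeing the data, the log2 ratio of the share was 0.024 in all kept barcodes, -0.018 in endothelial-like cells, -0.072 in fibroblast-like cells, -0.17 in smooth muscle or pericyte-like cells and 0.17 in type 1 alveolar-like cells. The family's median log2 ratio was 0.033 in all kept barcodes, -0.024 in endothelial-like cells, -0.076 in fibroblast-like cells and -0.16 in smooth muscle or pericyte-like cells. The number of genes over the limit was 3 in type 1 alveolar-like cells. With classes from marker UMIs per barcode, the log2 ratio of the share was 0.055 in endothelial-like cells and -0.056 in fibroblast-like cells. The family's median log2 ratio was 0.066 in endothelial-like cells and -0.036 in fibroblast-like cells. With each library clustered alone, the log2 ratio of the share was 0.28 in endothelial-like cells, 0.058 in fibroblast-like cells, 0.000598 in smooth muscle or pericyte-like cells, 0.13 in type 2 alveolar-like cells and 0.19 in type 1 alveolar-like cells. The family's median log2 ratio was 0.27 in endothelial-like cells. The number of genes over the limit was 1 in endothelial-like cells. With clusters weighted alike in both genotypes, the log2 ratio of the share was 0.056 in endothelial-like cells, -0.056 in fibroblast-like cells, 0.13 in type 2 alveolar-like cells and 0.14 in type 1 alveolar-like cells. The family's median log2 ratio was 0.045 in endothelial-like cells and -0.054 in fibroblast-like cells. Without the type 2 cluster of 4 WT barcodes, chosen after seeing the data, the log2 ratio of the share was 0.13 in type 2 alveolar-like cells. With mitochondrial UMIs left out of the total, the log2 ratio of the share was 0.17 in type 1 alveolar-like cells. With CPM of UMIs outside the family and mitochondria, the number of genes over the limit was 1 in type 1 alveolar-like cells. In fibroblast-like cells the sign of the share's ratio turned with marker UMIs, with clusters weighted alike and with equal depth bins, in type 1 alveolar-like cells with the stricter filter, in endothelial-like cells with equal depth bins, and in smooth muscle or pericyte-like cells with the stricter filter, with libraries clustered alone and with the mean per barcode. The causes were not tested. The number of ribosomal protein genes under the lower limit stayed at 0 in every setting run. For translation factors with a TOP tract over all kept barcodes the median was 0.105 without doublets and 0.114 with the stricter filter. Of the assembly genes, 1 was under -0.5 in smooth muscle or pericyte-like cells with the stricter filter. In endothelial-like cells 2 were over 0.5 and 1 under -0.5 with the stricter filter, and 1 over and 1 under with clusters weighted alike. The counts of genes by their balance within the family stayed within 1.5 times without doublets and with the stricter filter, which left no value for T or NK-like and B-like cells. Classes from marker UMIs gave values in endothelial-like and fibroblast-like cells alone, the others having too few barcodes. For 35 named members, 1094 of 1505 values under alternatives moved by less than their counting interval, 411 moved by more, and 185 had the opposite sign to the reported value, none of them from a value past 0.5 in size. No paired analysis was possible because each genotype is 1 library, and for the same reason no replicate could be left out. Depth limits genes of few UMIs and the leukocyte-like classes, whose counting intervals are wide, and the intervals leave out the spread between animals.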
